A study of Homo sapiens with 6 samples.

Results

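The genes described are 10 transcription factors and cofactors that direct blood cell formation, GATA1, GATA2, TAL1, KLF1, NFE2, GFI1B, LMO2, LDB1, RUNX1 and SPI1. They were chosen by name, and all 10 were found by symbol among the 26485 gene symbols of the count tables and in the FPKM tables. All 10 also passed the filter on low counts that left 12282 genes to test. The cells were K562, an established human leukaemia line with erythroid character, cultured in IMDM with fetal bovine serum. Control cells carried the guide RNA sgNeg2 and had the genotype label WT. ZNF410 knockout cells carried either of a pair of guides against ZNF410, called sgRNA1 and sgRNA2 below. Each of the 3 groups had 2 RNA-seq libraries, labelled replicate 1 and replicate 2, and all groups shared the cell line and the medium. The labels do not say what a replicate number stands for, whether the edited cells were clones or pools, or when RNA was taken after editing, so p-values measure the spread between these libraries, which may be technical.

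GATA1 is the factor that drives erythroid genes, and it binds DNA as part of a complex in which TAL1, with an E protein partner, reads an E-box, LMO2 bridges the proteins and LDB1 joins complexes at distant sites. KLF1 reads CACCC-type boxes and NFE2, the p45 subunit of NF-E2, pairs with a small MAF protein at globin enhancers, while GFI1B represses genes of other fates through KDM1A and RCOR1. GATA2 acts earlier, in stem and progenitor cells, and is replaced by GATA1 at shared sites as red cells form. RUNX1 acts at the start of blood formation and in megakaryocytes, and SPI1 (PU.1) drives myeloid genes and opposes GATA1. ZNF410 is a zinc finger protein known for its activation of CHD4, a NuRD subunit, and the comparison of knockout with control addresses how its loss alters gene expression, here of these factors.

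The 250 bases upstream of a RefSeq start site (GRCh38.p14; the outermost where the table holds 2) are printed for 4 members, GATA1, GATA2, TAL1 and KLF1, because these are the DNA-binding members at the centre of the erythroid network and their promoters show how the letters read by the same factors are placed. Promoters were in the reference table for 7 of the 10 members, with 2 each for GATA2, TAL1 and GFI1B. Capitals mark every match, on either strand, to any of these motifs, and overlapping matches run together. GATA factors read AGATAA or the variant TGATAA, the E-box of TAL1 is CAGATG, KLF proteins read CCNCNCCC, NF-E2 reads TGANTCA, ETS proteins such as SPI1 read GAGGAA, RUNX proteins read TGTGGT, and the core of the ZNF410 site is CCCATAA. The stretches of GATA1 (chrX:48786340-48786589, plus strand), GATA2 (chr3:128493202-128493451, minus strand), TAL1 (chr1:47232336-47232585, minus strand) and KLF1 (chr19:12887202-12887451, minus strand) read as follows, 5′ to 3′ on the gene's strand.
GATA1: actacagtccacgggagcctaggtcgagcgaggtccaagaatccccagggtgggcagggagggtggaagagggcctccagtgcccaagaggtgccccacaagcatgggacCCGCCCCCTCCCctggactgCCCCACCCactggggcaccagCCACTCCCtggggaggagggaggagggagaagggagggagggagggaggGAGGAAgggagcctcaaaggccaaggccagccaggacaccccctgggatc
GATA2: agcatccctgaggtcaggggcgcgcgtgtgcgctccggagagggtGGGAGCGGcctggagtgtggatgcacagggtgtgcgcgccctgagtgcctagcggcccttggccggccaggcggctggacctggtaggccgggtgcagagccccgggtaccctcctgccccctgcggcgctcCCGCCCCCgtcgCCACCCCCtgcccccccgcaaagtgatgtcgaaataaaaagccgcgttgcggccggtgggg
TAL1: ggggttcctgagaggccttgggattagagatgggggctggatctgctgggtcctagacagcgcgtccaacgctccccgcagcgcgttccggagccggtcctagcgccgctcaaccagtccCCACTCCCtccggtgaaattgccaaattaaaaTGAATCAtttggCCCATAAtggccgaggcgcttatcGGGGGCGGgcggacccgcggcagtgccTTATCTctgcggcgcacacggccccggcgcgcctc
KLF1: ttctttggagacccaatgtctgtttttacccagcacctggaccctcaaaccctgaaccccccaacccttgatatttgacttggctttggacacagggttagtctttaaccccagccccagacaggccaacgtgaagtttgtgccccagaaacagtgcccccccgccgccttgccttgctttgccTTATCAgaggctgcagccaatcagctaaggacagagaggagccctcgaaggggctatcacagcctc
The GATA1 stretch held 4 matches to the KLF letters and 1 to the ETS letters, 50 bases before the start. The GATA2 stretch held 3 KLF matches and no GATA match. The TAL1 stretch held GATA letters on the opposite strand (AGATAA, from position -35), NF-E2 letters (from -98), ZNF410 core letters (from -86) and 2 KLF matches. The KLF1 stretch held GATA letters on the opposite strand (TGATAA, from -66). The second promoter of GATA2, not printed, held 7 KLF matches and 1 ETS match, and that of TAL1 held 3 RUNX matches. Among 35116 promoters of 300 bases, AGATAA occurred in 10.3%, TGATAA in 7.53%, CAGATG in 14.7%, CCNCNCCC in 56.2%, TGANTCA in 7.71%, GAGGAA in 27.9%, TGTGGT in 13.1% and CCCATAA in 1.8%. A match is a description of the letters, and binding was not measured here.

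Gene counts summed to between 8788816 and 9537470 per library. ZNF410 had 38.17 and 33.98 CPM (counts scaled to library size) in control cells, 19.26 and 24.54 under sgRNA1, then 16.98 and 20.65 under sgRNA2, so all 4 knockout libraries lay below both controls. Its log2 fold change was -0.83 (SE 0.125, edgeR adjusted p 0.00226) with the replicate number as a block and -0.82 (SE 0.163, adjusted p 1.00) without it. CHD4 fell by 1.04 with the block (SE 0.0467, adjusted p 1.38e-08), and without it the value was -1.04 (adjusted p 0.127). Libraries of the same number deviated together, with r = 0.757 to 0.824 across 9966 genes, so fold changes of single genes are given with the block below, and the unblocked ones stand together with the knockout comparison. Erythroid markers were abundant in every library, with a summed FPKM (fragments scaled to transcript length and library size) of 13550 to 18596 in the 3 libraries of replicate 1 and 30151 to 43420 in those of replicate 2. The 22 myeloid genes summed to 171 to 193 FPKM in replicate 1 and 94.0 to 96.5 in replicate 2, with MPO and ELANE at 0. The 19 megakaryocyte genes summed to 104 to 136 FPKM and 166 to 174, with PF4 and SELP at 0. Most of this was MYH10, at 29.13 to 50.06 FPKM, and GP1BB, which did not pass the filter on low counts. GP1BB had 54.69 to 71.48 FPKM in replicate 1 and 92.86 to 105.9 in replicate 2. ITGA2B went the other way, from 7.18 to 10.16 FPKM in replicate 1 and 0.84 to 1.25 in replicate 2. T cell markers summed to 23.2 to 38.6 FPKM in replicate 1 and 4.63 to 6.95 in replicate 2, monocyte markers to 8.57 to 12.3 and 2.12 to 3.56, and epithelial markers to 503 to 544 and 349 to 394. Of 3 T cell and 3 monocyte markers, only 1 each passed the filter on low counts. The monocyte sum was mostly LYZ, at 8.39 to 12.19 FPKM in replicate 1 and 2.02 to 3.38 in replicate 2. CD14 reached at most 0.3 FPKM and did not fall with it. B cell and fibroblast markers summed to at most 0.81 and 0.34 FPKM. The part of these marker shifts in the results by replicate number was not tested, and in these bulk libraries fewer cells of a type and less RNA per cell cannot be told apart.

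Per gene length, GATA1 had the highest level of the 10 genes and SPI1 the lowest. Mean FPKM over the 6 libraries was 205.5 for GATA1, 179.6 for KLF1, 160.0 for NFE2, 104.6 for GATA2, 100.2 for LDB1, 63.6 for GFI1B, 40.5 for LMO2, 19.1 for RUNX1 and 12.1 for SPI1, with TAL1 between LMO2 and RUNX1 at 20.36 to 36.91 FPKM. GATA1 stood above 96.1% and SPI1 above 51.5% of the 11817 genes whose mean FPKM reached 0.5. Neighbours in this order were not all distinct. The ranges of GATA1 and KLF1, KLF1 and NFE2, NFE2 and GATA2, GATA2 and LDB1, TAL1 and RUNX1, and RUNX1 and SPI1 overlapped over the 6 libraries, whereas LDB1 lay above GFI1B, GFI1B above LMO2 and LMO2 above TAL1 in all 6. NFE2 exceeded GATA2 in 6 of 6 libraries although their ranges overlapped, and GATA1 exceeded KLF1 in 5 of 6. NFE2 ranked above KLF1 in the 3 libraries of replicate 1 and below it in the 3 of replicate 2, and GATA2 stood above LDB1 in replicate 1 and below it in replicate 2. In the control library of replicate 1, SPI1 at 24.65 FPKM stood above both RUNX1 at 22.89 and TAL1 at 20.36, while in the other 5 libraries it was the lowest of the 10.

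**Figure D1:**
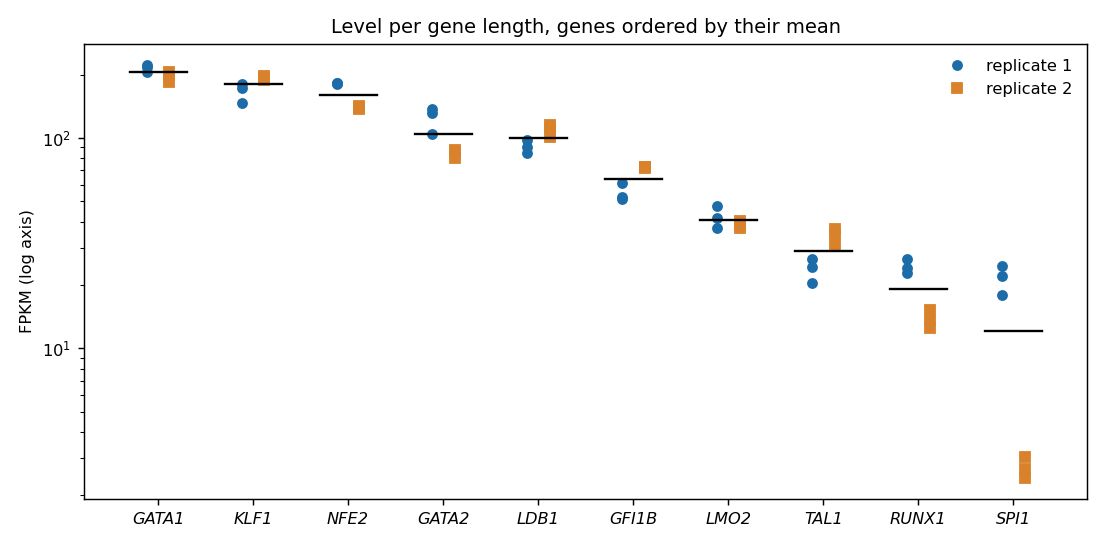
Level of each gene in FPKM on a log axis, with genes ordered by their mean over 6 libraries. Circles are the 3 libraries of replicate 1, squares the 3 of replicate 2 and the bar is the mean of all 6. GATA1 spans 184.53 to 222.81 FPKM, and SPI1 lies between 17.92 and 24.65 FPKM in replicate 1 and between 2.41 and 3.05 in replicate 2.

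The GATA factors are taken first. GATA1 (chrX:48786590-48794311) had 273 and 244 CPM in control cells (replicate 1 first), 296 and 262 under sgRNA1, then 290 and 266 under sgRNA2. The knockout and control libraries overlapped, and within each number both knockout libraries lay above the control. The log2 fold change of knockout against control was 0.11 (SE 0.0505), a fold of 1.08 with a 95% interval of 0.998 to 1.16, and an adjusted p of 0.399 with the block. Replicate 2 was below replicate 1 in every group, by 0.15 on the log2 scale in the joint fit (SE 0.0485, adjusted p 0.0184), and the 3 libraries of replicate 2 did not overlap the 3 of replicate 1. This call did not hold with DESeq2 (adjusted p 0.0675) or without either sgRNA1 library (adjusted p 0.153 without replicate 1 and 0.139 without replicate 2).

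GATA2 (chr3:128479422-128493201), the progenitor GATA factor, had 341 and 256 CPM in control cells, 433 and 288 under sgRNA1, then 445 and 269 under sgRNA2. On the log2 scale the knockout libraries lay 0.34 and 0.38 above the control within replicate 1, and 0.17 and 0.071 above it within replicate 2. The blocked log2 fold change was 0.24 (SE 0.0607), a fold of 1.18 with an interval of 1.08 to 1.29 and an adjusted p of 0.0586, against an unblocked 0.26 (SE 0.249, adjusted p 1.00). The interval left out 1 before adjustment over all genes, and the adjusted p missed the threshold of 0.05. With DESeq2 and the block the adjusted p was 0.0365, and without control replicate 2 the blocked value was 0.36 (adjusted p 0.0125). It was 0.28 (adjusted p 0.0315) without sgRNA2 replicate 2 and at its lowest 0.11 (adjusted p 0.646) without control replicate 1. The difference between the knockout effects of the 2 replicate numbers was itself not called, at -0.24 (SE 0.101, adjusted p 0.516). By replicate number GATA2 fell by 0.58 (SE 0.0578, adjusted p 2.51e-06) in replicate 2, or to 0.671 times replicate 1, with no overlap between the numbers.

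The balance of the GATA factors was followed as the log2 ratio of GATA1 to GATA2 counts in each library. It was -0.32 and -0.07 in control cells, -0.55 and -0.13 under sgRNA1, then -0.62 and -0.02 under sgRNA2. All 3 libraries of replicate 2 had a higher ratio than all 3 of replicate 1. The mean in knockout libraries was lower by 0.136 than in controls, with p = 0.6 in an exact two-sided permutation test over 15 arrangements, whose smallest possible p is 0.0667. Permuted within replicate numbers the exact p was 0.333, where 9 arrangements allow no p below 0.111, so neither test could reach 0.05. The difference, knockout minus control, was -0.261 without control replicate 1 and -0.010 without control replicate 2. In deposited FPKM, which takes length into account, GATA1 exceeded GATA2 in all 6 libraries, by 0.66 to 1.27 on the log2 scale.

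The partners that form the complex with GATA1 differed from one to the next. TAL1 (chr1:47216290-47232335), which brings the E-box contact, had 98.6 and 147 CPM in control cells, 111 and 163 under sgRNA1, then 119 and 173 under sgRNA2. Each knockout library lay above the control of its number, by 1.11 to 1.21 times. The blocked log2 fold change was 0.21 (SE 0.0610), with a 95% fold interval of 1.05 to 1.26 and an adjusted p of 0.118. From estimated counts with the block it was 0.25, with an adjusted p of 0.0291. TAL1 rose by replicate number, by 0.56 (SE 0.0544, adjusted p 1.83e-06), to 1.47 times replicate 1, and no library of replicate 2 overlapped replicate 1. The rise was 0.57, 0.56 and 0.54 within the control, sgRNA1 and sgRNA2 groups, so it varied little among them.

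LMO2 (chr11:33858576-33892076), the bridging protein, had 74.4 and 65.6 CPM in control cells, 68.0 and 57.9 under sgRNA1, then 66.3 and 66.4 under sgRNA2. The knockout and control libraries overlapped, and sgRNA1 replicate 2 was the lowest of the 6. The blocked knockout value was -0.11 (SE 0.0729, adjusted p 0.563). It was the single member not called by replicate number, at -0.14 (SE 0.0703, adjusted p 0.129), and its libraries overlapped between the numbers. LDB1 (chr10:102102088-102121442), the protein that joins complexes, had 179 and 208 CPM in control cells, 188 and 233 under sgRNA1, then 197 and 228 under sgRNA2. Its blocked knockout value was 0.13 (SE 0.0540, adjusted p 0.324), and it rose by 0.25 (SE 0.0514, adjusted p 0.00135) in replicate 2, with no overlap.

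**Figure D2:**
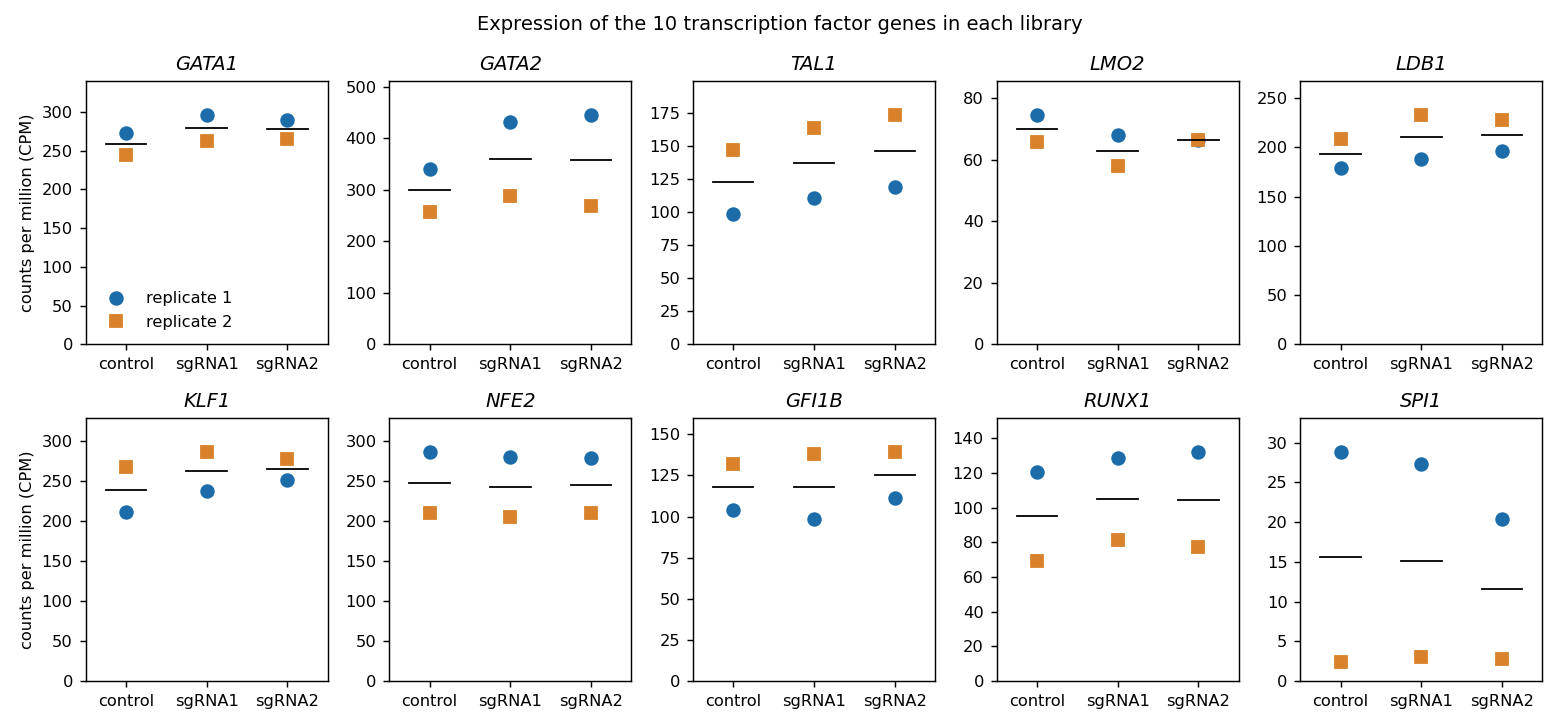
CPM (TMM-scaled) of the 10 genes in each of 6 libraries, each panel on its own axis from 0. Circles are replicate 1, squares replicate 2, and the bar is the mean of the 2 libraries of a group. The distance between circle and square exceeds the distance between groups in most panels, and SPI1 shows the widest gap.

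KLF1 (chr19:12884422-12887201), an activator of globin and red-cell membrane genes, had 211 and 267 CPM in control cells, 238 and 286 under sgRNA1, then 251 and 278 under sgRNA2. Every knockout library lay above the control of its number, by 1.04 to 1.19 times. The blocked log2 fold change was 0.14 (SE 0.0557), a fold of 1.11 with an interval of 1.02 to 1.20 and an adjusted p of 0.260. It was 0.073 without control replicate 1 and 0.21 without control replicate 2. KLF1 rose in replicate 2 by 0.25 (SE 0.0532, adjusted p 0.00161), and the numbers did not overlap.

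NFE2 (chr12:54292111-54301015) had 286 and 210 CPM in control cells, 280 and 205 under sgRNA1, then 279 and 211 under sgRNA2. Libraries of the same number were nearly equal across the 3 groups. The blocked knockout value was -0.03 (SE 0.0512, fold interval 0.910 to 1.06, adjusted p 0.887). NFE2 fell by 0.43 (SE 0.0493, adjusted p 8.05e-06) in replicate 2, with no overlap. GFI1B (chr9:132945531-132993434), the repressor, had 104 and 132 CPM in control cells, 98.6 and 138 under sgRNA1, then 111 and 139 under sgRNA2. Its blocked knockout value was 0.04 (SE 0.0641, adjusted p 0.853). GFI1B rose by 0.38 (SE 0.0583, adjusted p 0.00011) in replicate 2, again with no overlap. NFE2 and GFI1B thus had the smallest knockout differences of the 10 genes in the blocked fit.

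RUNX1 (chr21:34787801-35049302) had 121 and 69.2 CPM in control cells, 129 and 81.2 under sgRNA1, then 132 and 77.2 under sgRNA2. Knockout libraries were 1.07 to 1.17 times the control of their number. The blocked log2 fold change was 0.15 (SE 0.0622, fold interval 1.01 to 1.22, adjusted p 0.310). RUNX1 fell by 0.75 (SE 0.0598, adjusted p 2.76e-07) in replicate 2, to 0.595 times replicate 1, with no overlap.

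SPI1 (chr11:47354860-47378547), the myeloid factor, had 250 and 23 counts in control cells, 248 and 29 under sgRNA1, then 189 and 25 under sgRNA2. This was 28.8 and 2.43 CPM, 27.3 and 3.04 CPM, and 20.4 and 2.72 CPM. All 3 libraries of replicate 2 lay far below all 3 of replicate 1. SPI1 fell by 3.21 (SE 0.169, adjusted p 5.14e-09), to 0.108 times replicate 1 with an interval of 0.0839 to 0.139, the largest difference of the 10 genes in that contrast. A larger difference in size was seen for 0.285% of all genes tested. Knockout against control gave -0.15 (SE 0.178, fold interval 0.693 to 1.18, adjusted p 0.791) with the block, and the knockout libraries lay below the control in replicate 1 (0.947 and 0.709 times) and above it in replicate 2 (1.25 and 1.12 times). That reversal between the numbers was not called, at 0.52 (SE 0.412, adjusted p 0.782), and the counts of 23 to 29 in replicate 2 limit it. The log2 ratio of GATA1 to SPI1 in FPKM ran from 3.06 to 3.60 in replicate 1 and from 5.92 to 6.36 in replicate 2.

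Knockout against control called none of the 10 genes in the edgeR test without the block, in a background of 0% of 12282 genes, and the adjusted p was 1.00 for each. These unblocked log2 values were 0.10 for GATA1 (SE 0.0921), 0.26 for GATA2 (SE 0.249), 0.21 for TAL1 (SE 0.240), 0.14 for KLF1 (SE 0.126), -0.03 for NFE2 (SE 0.188), 0.04 for GFI1B (SE 0.175), -0.11 for LMO2 (SE 0.105), 0.13 for LDB1 (SE 0.122), 0.14 for RUNX1 (SE 0.312) and -0.22 for SPI1 (SE 1.16). None of the 10 had an unadjusted p under 0.05 there, against 2.31% of all genes, and DESeq2 called none of the 10. With the block none of the 10 was called either, where 1.84% of all genes were called, 1.19% higher and 0.651% lower. In that fit 5 of the 10, GATA2, TAL1, KLF1, LDB1 and RUNX1, had an unadjusted p under 0.05, against 12.9% of all genes. DESeq2 with the block called 1 of the 10, GATA2 (1.32% of all genes), and the blocked fit of estimated counts called 1, TAL1 (3.03% of all genes). The median blocked difference of the 10 was 0.12 on the log2 scale, and that of all genes tested was 0.0045, while the median sizes were 0.14 and 0.098. In no member did the 4 knockout libraries stand apart from both controls, a pattern seen in 9.44% of genes. In 6 of the 10, GATA1, GATA2, TAL1, KLF1, LDB1 and RUNX1, all 4 knockout libraries lay above the control of their own number (16.2% of genes), and in 0 of the 10 all 4 lay below it (14.9% of genes; 31.2% for either side).

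By guide, none of the 10 was called against control without the block (0% of genes for both guides, and 0 of the 10 with an unadjusted p under 0.05). With the block none was called for sgRNA1 (0.887% of genes called) or sgRNA2 (1.38%), and 3 and 4 of the 10 had an unadjusted p under 0.05, against 9.91% and 12.3% of all genes. DESeq2 called none of the 10 with either guide, where it called 6 (sgRNA1) and 4 (sgRNA2) of 12282 genes without the block and 53 and 73 with it. The blocked GATA2 value was 0.25 (SE 0.0708, adjusted p 0.147) with sgRNA1 and 0.23 (SE 0.0709, adjusted p 0.157) with sgRNA2. With 1 library left out it ran from 0.13 to 0.38 with sgRNA1 and from 0.10 to 0.35 with sgRNA2. TAL1 was 0.16 (SE 0.0668, adjusted p 0.434) and 0.25 (SE 0.0666, adjusted p 0.0897). With no filter beyond 1 count, the block called GATA2 with sgRNA1 (adjusted p 0.0161; 1.63% of genes) and with sgRNA2 (adjusted p 0.0388; 2.37% of genes), and TAL1 was called from estimated counts with sgRNA2 (adjusted p 0.0230; 2.26% of genes). Both guides were compared with the same control libraries. Compared with each other, the guides gave no call among the 10 without the block (0% of genes) or with it (0.0896% of genes), none of the 10 had an unadjusted p under 0.05, and DESeq2 called none. The blocked difference of sgRNA2 from sgRNA1 was largest for SPI1, at -0.36 with an interval of -0.77 to 0.06, and for the other 9 members it lay between -0.02 and 0.09.

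**Figure D3:**
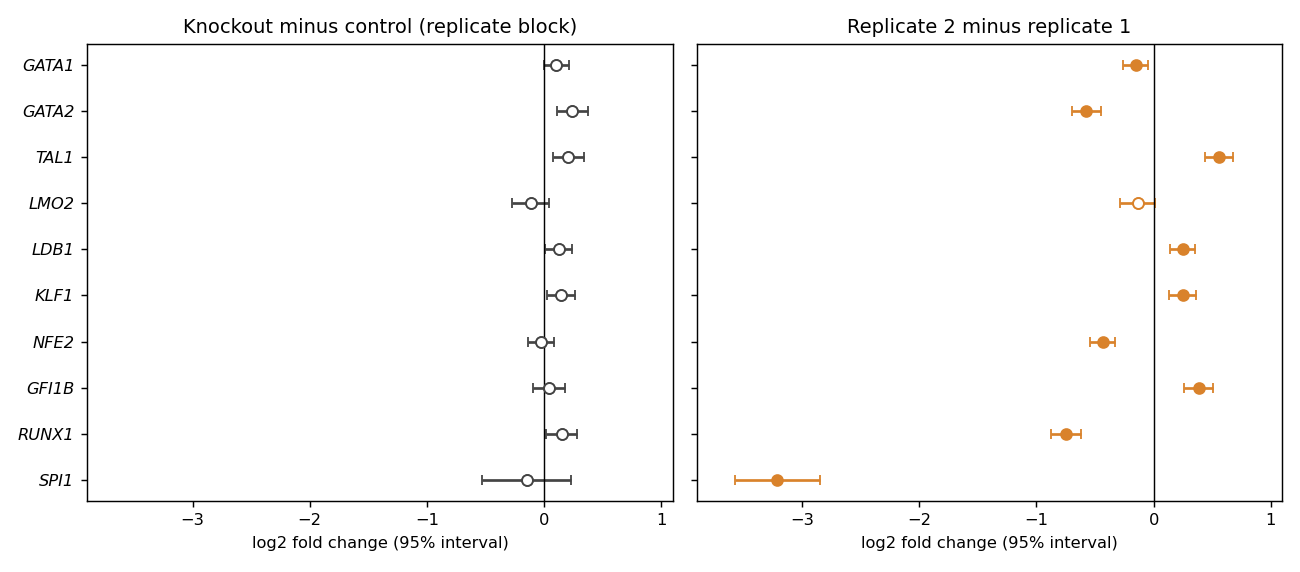
Log2 fold change of each gene with its 95% interval, for knockout against control with a replicate block (left) and for replicate 2 against replicate 1 (right). Filled points have an adjusted p under 0.05. None is filled on the left, and 9 of 10 are filled on the right, with SPI1 at -3.21.

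Between replicate numbers 9 of the 10 genes were called, in a background of 45% of all genes. TAL1, KLF1, GFI1B and LDB1 were higher in replicate 2 (4 of 10, with 21.6% of all genes higher), and GATA1, GATA2, NFE2, RUNX1 and SPI1 were lower (5 of 10, with 23.5% of all genes lower). DESeq2 called 8 of the 10 (28% of genes), all but GATA1 and LMO2. In the same 4 genes all 3 libraries of replicate 2 lay above all 3 of replicate 1 (25.6% of genes), and in the same 5 they lay below (26.5% of genes; 52.1% for either side). The median size of the difference was 0.41 for the 10 genes and 0.26 for all genes tested. SPI1 alone of the 10 differed by over 2-fold. Members of the complex were thus found on both sides, TAL1 and LDB1 higher and GATA1 lower. The knockout effect itself was not called as different between the numbers in any of the 10 genes by edgeR (0.244% of genes called) or DESeq2. GATA2 was the 1 member of 10 with an unadjusted p under 0.05 in that edgeR test, against 8.35% of all genes, and DESeq2 gave no member such a p.

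Transcript use was read from the mean transcript length of each gene, which the deposited estimates give. GATA1 and KLF1 had a single length, and the other 8 had several transcripts. The mean length of GFI1B was 2092 to 2138 bases in replicate 1 and 2022 to 2047 in replicate 2, and LDB1 was also shorter in all 3 libraries of replicate 2 (8.46% of genes). GATA2 was longer in all 3 (11.5% of genes), by a few bases in lengths of 3389 to 3411. RUNX1 ranged most widely, from 4907 to 5702 bases, and both ends came from sgRNA2 libraries. These lengths are estimates with no count of their own and were not tested further.

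Of the 22 partners and cofactors of these factors, 21 were tested. None was called in knockout cells from whole-number counts, with the block (1.84% of all genes) or without it (0%). From estimated counts with the block 1 of the 21 was called (3.03% of all genes), ZFPM1, the GATA1 cofactor FOG1, at 0.40 (SE 0.0913, adjusted p 0.0343), against 0.41 (adjusted p 0.0569) from whole-number counts. HDAC1 and LYL1 had the highest FPKM, and their blocked log2 values were 0.05 and -0.03. By replicate number 8 of the 21 rose and 5 fell, in a background of 21.6% of all genes higher and 23.5% lower. MAFF, a small MAF partner of NFE2, fell by 1.58, BACH2, a repressor that also pairs with small MAF proteins, fell by 0.84, and the acetyltransferase gene CREBBP rose by 0.74. Of 31 paralogs 16 were tested, and none was called in the knockout from whole-number counts (1.84% of all genes with the block, 0% without). Among them NFE2L2 and NFE2L1 had the highest FPKM, with blocked values of -0.19 (adjusted p 0.123) and 0.01, and from estimated counts NFE2L2 was the 1 called of 20 paralogs tested there (3.03% of all genes), at -0.24 (SE 0.0485, adjusted p 0.0166). By number 2 of the 16 paralogs rose and 7 fell (21.6% and 23.5% of all genes), led by KLF10 (-1.22), NFE2L3 (-1.17) and KLF7 (-1.07).

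Of 30 other blood transcription factors 22 were tested. In the knockout with the block 2 fell and none rose, ETS1 by 0.96 (SE 0.184, adjusted p 0.0136) and MYB, a progenitor factor, by 0.28 (SE 0.0570, adjusted p 0.0206), where 1.19% of all genes were higher and 0.651% lower. Without the block none was called (0% of all genes). From estimated counts with the block 3 of the 22 fell (136 of 12764 genes were lower), ETS1, MYB and GABPA (-0.26, SE 0.0609, adjusted p 0.0398). By number 5 of the 22 rose and 12 fell (21.6% and 23.5% of all genes), and EGR1, an early response gene, fell most, from between 312 and 423 CPM to between 7.39 and 30.4 CPM (-4.40, SE 0.206). CEBPB, a myeloid factor, fell by 1.09, and ETS1 fell by 1.07. In the list of genes known to fall as GATA1 acts, counted without GATA2 and SPI1, 6 of 7 were tested. MYB fell in the blocked knockout fit and the other 5 were not called (0.651% of all genes were lower). By number 3 of the 6 fell and 1 rose (23.5% and 21.6% of all genes). MYB (-0.55), MYC (-0.40) and HHEX (-0.37) fell and CDK6 rose.

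Of 45 erythroid genes known to be activated by GATA1, TAL1 or KLF1, counted without GATA1 and KLF1, 43 were tested. With the block 10 rose and 1 fell in the knockout (1.19% and 0.651% of all genes), and without it none was called (0%). From estimated counts with the block 18 of the 43 rose and 0 fell, where 251 of 12764 genes were higher and 136 lower. The list's median was 0.21, against 0.0045 for all genes. HBB, adult beta-globin, rose by 1.40 (SE 0.257, adjusted p 0.00976), CA1, carbonic anhydrase, by 1.05 (SE 0.0926, adjusted p 1.4e-05), HBE1, embryonic globin, by 0.92 (SE 0.0758, adjusted p 6.42e-06), HBZ by 0.64, HBG1 by 0.59 and the glycophorin GYPB by 0.57. HBG2, FECH and BLVRB rose by 0.32, 0.31 and 0.27, and XPO7 fell by 0.22. HBB counts were low, at 9 and 72 in control cells, 41 and 171 under sgRNA1, then 53 and 129 under sgRNA2. HBG1 and HBG2 are near-identical copies and uncertain between them, and HBG1 and HBZ had whole-number counts of only 0.0474 and 0.232 of their estimated counts. By number 28 of the 43 rose and 2 fell (21.6% and 23.5% of all genes). HBD rose by 3.48 and HBE1 by 2.47, and BCAM, a red-cell adhesion protein, fell by 2.49. HBD had only 4, 9 and 20 counts in replicate 1 (control, sgRNA1, sgRNA2), and BCAM only 11, 4 and 9 in replicate 2. KLF1 and TAL1 rose by number as many of these genes did, while GATA1 fell.

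**Figure D4:**
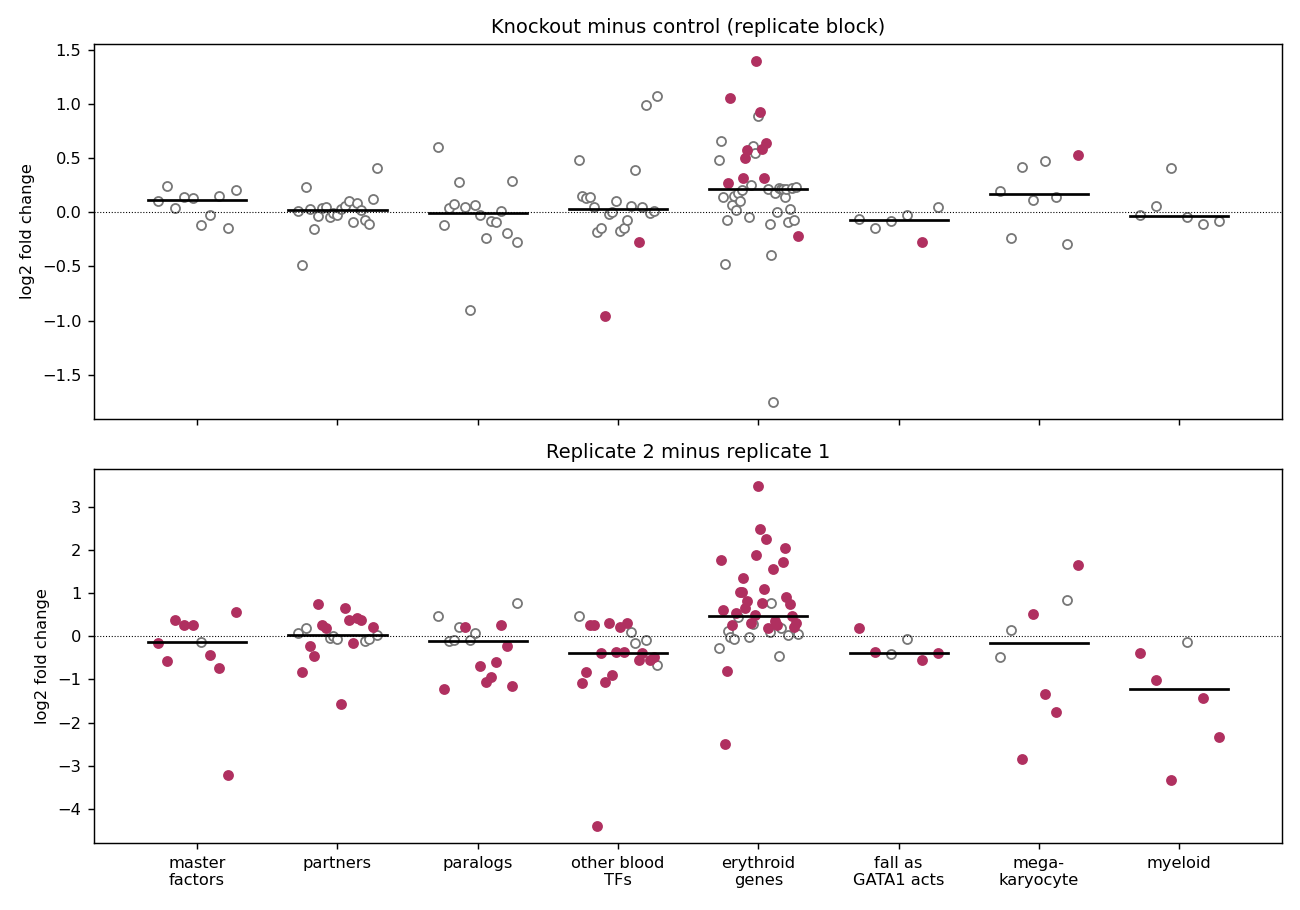
Log2 fold change of each tested gene in 8 lists, knockout against control with a replicate block above and replicate 2 against replicate 1 below. The black bar is the list median, and filled points have an adjusted p under 0.05. Among erythroid genes most filled points lie above 0 in both panels, and all filled myeloid points lie below 0 in the lower panel. The axes differ between panels, and GATA1, KLF1, GATA2 and SPI1 are drawn with the 10 factors.

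Of 19 megakaryocyte genes 8 were tested. TUBB1, a platelet tubulin, rose by 0.53 (SE 0.110, adjusted p 0.0220) in the knockout with the block, and the other 7 were not called (1.19% of all genes were higher and 0.651% lower). By number 2 of the 8 rose and 3 fell (21.6% and 23.5% of all genes). TUBB1 rose by 1.64 and MYH10 also rose, and ITGA2B, the integrin that marks the lineage, fell by 2.85, RAB27B by 1.75 and MYL9 as well. RAB27B had only 13, 13 and 17 counts in replicate 1 and 4, 4 and 5 in replicate 2. Of 22 myeloid genes known as targets of SPI1, 6 were tested. None was called in the knockout, with the block (1.84% of all genes) or without it (0%). BTK and LAPTM5 had the highest FPKM, with blocked knockout values of -0.02 and -0.11. By number 5 of the 6 fell and none rose (23.5% and 21.6% of all genes), the cytokine receptor chain CSF2RB by 3.32, the lysozyme gene LYZ by 2.34, LAPTM5 by 1.43, and CD68 and BTK with them. The 5 fell in the same contrast as SPI1, and CSF2RB had only 12, 10 and 7 counts in replicate 2. The lists share no gene with the 10 factors in these counts, MYB, MYC, HHEX and LYL1 stand in 2 lists, and the lists were put together with earlier results of these data known.

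For each member the gene with the most similar profile was sought among 9956 others, as the smallest root mean square distance of log2 CPM, each centred on its mean over the 6 libraries. The nearest was RAB6A for GATA1 (0.0118), DBN1 for GATA2 (0.0463), LNX2 for TAL1 (0.0295), AKAP1 for KLF1 (0.0210), GABARAP for NFE2 (0.0257), TMEM63B for GFI1B (0.0172), PROS1 for LMO2 (0.0274), OXCT1 for LDB1 (0.0139), TSPO for RUNX1 (0.0445) and DLK1 for SPI1 (0.0653). For scale, the same measure of a member around its own mean was 0.092 for GATA1, 0.106 for LMO2 and 1.61 for SPI1.

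The annotation places genes on the opposite strand across 5 members. GATA2 is overlapped by GATA2-AS1, GFI1B by TSC1, and TAL1, NFE2 and LMO2 by noncoding genes, while GATA1, KLF1, LDB1, RUNX1 and SPI1 have none in GENCODE. Whether counting used strand is not given in the sources used here, so reads of overlapping genes may be mixed. Averaged over the 6 libraries, the whole-number counts of the 10 genes were 0.44 (LDB1) to 0.607 (LMO2) of their estimated counts.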

How the data were processed

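RNA-seq of K562 cells gave 6 libraries, 2 for each of the control guide and 2 ZNF410 guides. Per the submitters' processing notes the tools were Trim Galore, HISAT2 2.2.1, SAMtools 1.9, HTSeq 0.6.1, RSEM 1.3.2 and DESeq2 1.36.0, with hg38. The authors deposited whole-number gene counts (26485 genes, not normalized), with 61.6% to 62.6% of reads in 5 entries that name no gene, which were left out. The authors also deposited estimated counts, TPM, FPKM and mean transcript lengths per gene. Estimated counts were rounded before use. Counts were tested with edgeR 4.0.16 (quasi-likelihood, TMM, filterByExpr, Benjamini-Hochberg over 12282 genes, call at adjusted p under 0.05) in R 4.3.3, without a replicate block, and with it as an alternative. Alternatives were DESeq2 1.42.0, its size factors, no filter, estimated counts, limma 3.58.1 on log2(FPKM + 1) or log2(FPKM + 0.1), and leaving out each library. Replicate numbers paired the samples by their deviations (r = 0.811, 0.757 and 0.824), a pairing seen in the data and not stated in the labels. Genes named were the 10 members, ZNF410 and CHD4, and from each list up to 6 called in the blocked knockout fit and up to 3 called by replicate number, by size of change, or else the 2 with the highest FPKM. HBG2, FECH, BLVRB, XPO7, CDK6, MYL9, MYH10, ZFPM1, GABPA, CD68 and BTK by number, and the genes in the interaction results, were named after their values were seen. The members and lists were chosen with earlier results of these data known.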

Additional observations from a re-analysis of the deposited data

Results flagged for a closer look

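LMO2 in the 4 knockout libraries had a gap between its lowest value, 57.88 CPM under sgRNA1 in replicate 2, and the nearest of the others that was 0.829212 of the whole range, just past the 95% critical value of Dixon's ratio for 4 samples. The other 3 libraries lay between 66.28 and 68.01 CPM. Chance alone gives such a gap in about 1 in 20 groups of 4 independent, alike samples. These 4 libraries came from 2 guides and 2 replicate numbers, and libraries of the same number deviated together, so that rate may differ here.

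In the edgeR interaction test the knockout effect differed between the replicate numbers for 3 of the 43 erythroid genes tested (0.244% of all genes). The difference, replicate 2 minus replicate 1, was 0.98 for HBA2 (adjusted p 0.0133), 0.68 for HBZ (adjusted p 0.0143) and -3.86 for PKLR (adjusted p 5.54e-05) on the log2 scale. From estimated counts it was 0.39 for HBA2 (adjusted p 0.369), 0.80 for HBZ (adjusted p 0.0011) and -0.26 for PKLR (adjusted p 0.535), so the calls for HBA2 and PKLR were lost there. PKLR had 571 whole-number counts in control replicate 2 and 34 to 82 in every other library, so its value rests on that control library. Whole-number counts of HBA2, HBZ and PKLR were 0.0529, 0.232 and 0.0279 of their estimated counts, and their values are uncertain.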

How the results depend on the processing

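Genes called in knockout against control, in sgRNA1, in sgRNA2 and between the guides were 0, 0, 0 and 0 without a block. They were 19, 6, 4 and 0 with DESeq2 and no block, 226, 109, 170 and 11 with the replicate block, 225, 106, 164 and 8 with the block and DESeq2 size factors, 245, 289, 421 and 53 with the block and no filter, 162, 53, 73 and 4 with the block and DESeq2. They were 387, 178, 289 and 7 with the block and estimated counts, 194, 44, 94 and 2 with the block and limma on log2(FPKM + 1), 212, 40, 84 and 3 with a pseudocount of 0.1 instead, 15, 3, 1 and 0 with limma and no FPKM filter. With no filter and no block, knockout against control called 1 gene. One of the 10 members was called (1 of 10) with the block by DESeq2 (knockout), by no filter (each guide) and by estimated counts (knockout and sgRNA2).

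Leaving out 1 library at a time, with or without the block, gave these ranges of calls. For knockout against control, 0 to 212 genes were called. For sgRNA1 against control, 0 to 462 genes were called. For sgRNA2 against control, 0 to 647 genes were called. For sgRNA2 against sgRNA1, 0 to 95 genes were called. For replicate 2 against 1, 3932 to 5485 genes were called. For the knockout effect between numbers, 29 to 88 genes were called. For knockout against control, 0 to 1 of the members were called. For sgRNA1 against control, 0 to 1 of the members were called. For sgRNA2 against control, 0 to 1 of the members were called. For replicate 2 against 1, 8 to 9 of the members were called. The knockout effect differed between numbers for 32 genes (DESeq2 size factors in edgeR), 12 genes (no filter beyond 1 count), 10 genes (DESeq2 Wald test), 14 genes (estimated counts), 9 genes (limma on log2(FPKM + 1)), and leaving out a control library made that test inestimable.

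Directions that turned under another tool or setting were the following, as log2 values. GFI1B for sgRNA1 against control was -0.0023, -0.0072, -0.0023, -0.019, -0.0044, -0.0080, -0.013, -0.0092, -0.024, -0.018, -0.018, -0.018. SPI1 for sgRNA1 against control was 0.015, 0.013, 0.0053, 0.052. NFE2 for sgRNA2 against control was 0.014, 0.014, 0.014. NFE2 for knockout against control was 0.0044, 0.0044, 0.0044. GATA1 for sgRNA2 against sgRNA1 was 0.011, 0.011, 0.011. GATA2 for sgRNA2 against sgRNA1 was 0.0059, 0.0095, 0.0094, 0.0095. LMO2 for sgRNA2 against sgRNA1 was -0.049, -0.045, -0.024, -0.025, -0.024. GFI1B for the knockout effect between numbers was -0.029, -0.074.

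Leaving out 1 library can make the compared groups unequal in replicate number. Without the block, the difference between the numbers then enters the knockout and guide values. With the block, the knockout values under such omissions ran from 0.18 to 0.23 for TAL1 and from 0.073 to 0.21 for KLF1. Leaving out 1 library in fits without the block gave these ranges for members that crossed 0. For knockout against control the log2 ranges were TAL1 -0.059 to 0.52, KLF1 -0.026 to 0.32, NFE2 -0.23 to 0.21, GFI1B -0.13 to 0.23, RUNX1 -0.20 to 0.59, SPI1 -1.11 to 2.45. For sgRNA1 against control the log2 ranges were GATA2 -0.057 to 0.53, TAL1 -0.15 to 0.47, KLF1 -0.035 to 0.31, NFE2 -0.28 to 0.20, GFI1B -0.26 to 0.22, LDB1 -0.039 to 0.26, RUNX1 -0.23 to 0.59, SPI1 -2.35 to 2.63. For sgRNA2 against control the log2 ranges were GATA2 -0.15 to 0.57, TAL1 -0.046 to 0.56, KLF1 -0.018 to 0.33, NFE2 -0.24 to 0.21, GFI1B -0.089 to 0.27, LMO2 -0.17 to 0.0098, RUNX1 -0.30 to 0.59, SPI1 -2.51 to 2.24. For sgRNA2 against sgRNA1 the log2 ranges were GATA1 -0.090 to 0.085, GATA2 -0.42 to 0.31, TAL1 -0.21 to 0.40, KLF1 -0.11 to 0.15, NFE2 -0.20 to 0.26, GFI1B -0.14 to 0.34, LMO2 -0.036 to 0.20, LDB1 -0.13 to 0.17, RUNX1 -0.44 to 0.37, SPI1 -2.47 to 1.92. For the knockout effect between numbers the log2 ranges were GATA1 -0.0052 to 0.022, TAL1 -0.077 to 0.029, NFE2 -0.00044 to 0.041, GFI1B -0.031 to 0.14, LMO2 -0.034 to 0.16. Members also crossed 0 with the block when 1 library was left out, with these ranges. For knockout against control they were SPI1 -0.27 to 0.24. For sgRNA1 against control they were GFI1B -0.082 to 0.060, SPI1 -0.10 to 0.41. For sgRNA2 against control they were NFE2 -0.042 to 0.0015, LMO2 -0.18 to 0.026, SPI1 -0.47 to 0.053. For sgRNA2 against sgRNA1 they were GATA1 -0.026 to 0.018, GATA2 -0.14 to 0.082, KLF1 -0.060 to 0.099, NFE2 -0.0069 to 0.041, LMO2 -0.024 to 0.19, LDB1 -0.023 to 0.061, RUNX1 -0.077 to 0.041.

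DESeq2 called 3438 genes by replicate number. The cause of these shifts was not tested. In the main edgeR setting, adding the replicate block altered no call among the 10 members. With DESeq2 or no filter it added a call of GATA2, and with estimated counts a call of TAL1. The calls by replicate number held for all 9 members but GATA1 under the alternatives run. SPI1 had 23 to 29 counts in replicate 2, which limits its knockout values.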
